A study of Rattus norvegicus with 8 samples.

Results

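The 38 genes described here encode secreted and membrane-bound enzymes that cut the extracellular matrix, together with their inhibitors, and were measured in H9c2 cells, a myoblast line from embryonic rat heart. They are the matrix metalloproteinases (21 Mmp genes), the ADAMTS proteases (10 Adamts genes), the ADAMTS-like proteins (3 Adamtsl genes) and the tissue inhibitors of metalloproteinases (4 Timp genes). The families were chosen with earlier results of these data known, and their members were then taken by gene symbol from the annotation of the array. Each was represented by 1 probe set among 23188, of which 15049 carried a gene symbol. Family genes without a named probe set here, such as Mmp25, Adamts2 and Adamts13, were not analysed.

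The study grew H9c2 cells aboard the International Space Station or on ground, with nanoceria (cerium oxide nanoparticles coated with serum) at 100 µg/ml or without, in differentiation medium with little serum. Total RNA was read on 1 rat Clariom S Pico array per sample, with 1 array for space untreated (replicate 1), 2 for space nanoceria (1 and 2), 2 for ground untreated (1 and 3) and 3 for ground nanoceria (1 to 3). All cells had been seeded at 35000 cells/cm2 at passage 6 to 12, travelled in a pouch preheated to 27 °C, were kept at 37 °C from day 7 and were fixed at day 10. The ground cultures were run later on the temperature profile logged in flight, so spaceflight and culture run cannot be told apart.

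Matrix metalloproteinases are zinc enzymes made as inactive precursors. Some are cut into active form inside the cell by furin, others at the cell surface, and the 4 TIMPs block the active enzymes by filling the catalytic cleft. The ADAMTS enzymes cut proteoglycans such as aggrecan and versican, process procollagens or act on microfibrils, and ADAMTS-like proteins resemble their ancillary domains but have no protease domain. In muscle, these enzymes and inhibitors act when myoblasts migrate and fuse and when the matrix around fibres is rebuilt.

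Intensities are given as log2 of the deposited linear intensity, and a difference of 1 on this scale is a doubling. Median intensity ran from 107 to 117 over the 8 arrays. Pearson correlations across all probe sets were 0.991 to 0.992 among the 3 space arrays, 0.959 to 0.985 among the 5 ground arrays and 0.964 to 0.987 between regimes. The array of ground untreated 3 stood apart: all 9 measured cell-cycle genes were lowest there, with a mean deviation of -2.18 log2 units from their averages over the 8 arrays, 7 of 8 targets of the oxidant-responsive factor NRF2 were highest there, and 6 of 10 skeletal muscle genes were lowest there. Values without it are given beside the results that it moves most. Of the 10 measured skeletal muscle markers, Myog averaged 8.71 over the 8 arrays, Myod1 7.55 and Acta1 9.46. Myf5 (4.15) and Myf6 (4.44) were dimmer, and the other skeletal muscle markers are not listed here. The median of all 10 ran from 6.79 in ground untreated 3 to 7.86 in ground nanoceria 1. Of the 7 measured cardiomyocyte markers, Tnnt2 averaged 10.89, Nkx2-5 7.19 and Nppb 7.00. The others were dimmer: Tnni3 6.33, Gata4 6.18, Nppa 6.10 and Ryr2 4.14. Fibroblast collagen genes, the fibroblast markers Postn (12.09) and Thy1 (11.14), and the smooth muscle genes Tagln, Acta2 and Cnn1 were among the brightest probe sets. The fibroblast markers Tcf21 (3.96) and Pdgfra (5.62) and the smooth muscle myosin Myh11 (6.55) were not. Levels of Dcn, Lum and Myocd are not given here. Endothelial markers averaged 4.4 to 6.0, and Kdr (5.97) lay in the middle class of brightness defined in the next paragraph. Of the 5 macrophage markers, Ptprc, Adgre1 and Csf1r lay between 4.27 and 4.47, but Cd68 averaged 7.29 and Cd14 8.18, in the middle and the brightest class of brightness defined next.

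Probe sets of the members spread over the whole brightness range of the array. By mean log2 intensity over 8 arrays, with all probe sets split into 3 equal classes of brightness at 5.72 and 7.99, 15 members lay in the dimmest class, 10 in the middle one and 13 in the brightest. No detection measure was available, so a dim probe set may report no transcript. Probe sets differ in how strongly they bind, so these figures describe probe sets and do not rank transcripts.

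Among the inhibitors, Timp2, which also helps Mmp14 to activate the precursor of Mmp2, had the brightest probe set of all members. Its log2 intensity was 12.73 in space untreated 1, 12.92 and 12.91 in space nanoceria 1 and 2, 12.82 and 12.89 in ground untreated 1 and 3, and 13.15, 13.12 and 12.99 in ground nanoceria 1 to 3. Both untreated groups lay below all 5 nanoceria arrays, by small margins. Timp1, an inhibitor also known to act as a growth factor, lay between 7.71 and 8.60, with ground nanoceria 1 highest and the other 7 arrays at or below 8.10. Timp4, best known from heart, lay between 3.63 and 4.01 on all arrays, near the dim end of the array. Timp3, the inhibitor that binds to the matrix itself, lay between 6.62 and 7.77 and is described with the regime comparison.

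Among the membrane-anchored enzymes, Mmp14 (MT1-MMP), a collagenase at the cell surface and the main activator of Mmp2, had a probe set at the 96.0th percentile of brightness. The other 4, Mmp15, Mmp16, Mmp17 and Mmp24, had mean log2 intensities of 7.47, 6.99, 7.02 and 5.38. Of the gelatinases, which cut denatured collagen and basement membrane, Mmp2 averaged 8.70 and Mmp9 5.44. Mmp2 also varied most of all members over the 8 arrays. Its log2 intensity was 10.32 in ground untreated 3 but only 8.14 in ground untreated 1, 8.87, 8.79 and 8.24 in ground nanoceria 1 to 3, 8.52 in space untreated 1, and 8.67 and 8.04 in space nanoceria 1 and 2. The 7 other arrays thus lay within 1 log2 unit of each other, and the 2 untreated ground arrays held both the highest and nearly the lowest value. Mmp19, a secreted enzyme of basement membrane, had the same single high array: it lay at 11.81 in ground untreated 3 and between 10.76 and 11.27 elsewhere.

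The ADAMTS genes with bright probe sets were Adamts12, which cuts cartilage oligomeric matrix protein, at a mean of 12.08, and Adamts10, which binds fibrillin microfibrils, at 10.21. The proteoglycan-cleaving members Adamts1, Adamts4, Adamts5 and Adamts9 averaged 8.82, 8.26, 8.01 and 7.90, and Adamts15 6.61. Adamts9 was spread widely within groups: it lay at 8.23 and 7.11 in ground untreated 1 and 3, at 7.24, 8.41 and 7.39 in ground nanoceria 1 to 3, at 8.57 in space untreated 1, and at 7.99 and 8.24 in space nanoceria 1 and 2. The space arrays lay closer together, while the ground arrays split into 2 high and 3 low ones. Adamtsl5 and Adamtsl3, at 9.80 and 9.30, were among the 12 brightest members.

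**Figure D1:**
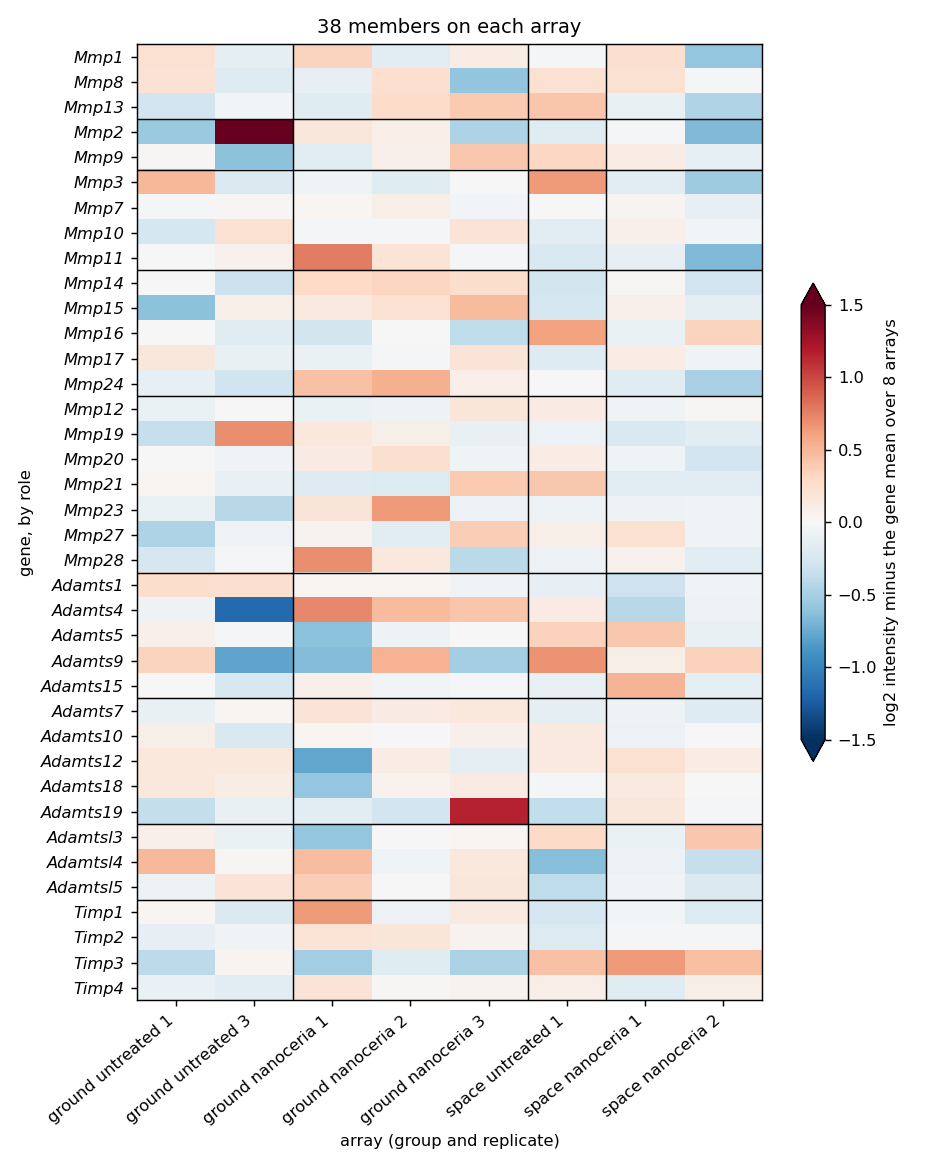
Each row is 1 of the 38 members, grouped by role, and each column is 1 array; colour gives the log2 intensity minus the gene's mean over the 8 arrays, with the scale ending at 1.5 either way. The darkest red cell is Mmp2 in ground untreated 3 (log2 intensity 10.32 against a mean of 8.70), and Timp3 is red in all 3 space columns.

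The interstitial collagenases Mmp1, Mmp8 and Mmp13, the stromelysins Mmp3 and Mmp10, the matrilysin Mmp7, the macrophage elastase Mmp12, the enamel protease Mmp20 and Mmp27 are neighbours on rat chromosome 8, in a run broken by no protein-coding gene outside the family. All 9 gave dim probe sets, with means of 3.87 to 5.31 at the 3.1st to 27.0th percentile, and 0 of them reached a mean log2 intensity of 7, which 21 of the other 29 members did. Several of these genes, such as Mmp1, Mmp3 and Mmp13, are known to be switched on by inflammatory signals through the transcription factor AP-1. Of the 38 members, 29 had an entry in the RefSeq promoter table (build GRCr8), and the 250 bases before the annotated start were searched on both strands for 3 short motifs: TGANTCA, the AP-1 site, which reads the same on both strands, TATAAA, the TATA box, and GGGCGG, the GC box bound by Sp factors. TATAAA matches on opposite strands can overlap, as they did in Mmp10.

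An AP-1 match stood in 7 of the 29 windows (24.1%, against 5.61% of the 12435 windows of genes with a symbol on this array and 6.36% of all 27457 windows). A TATA match stood in 12 (41.4%, against 11.2% and 13.1%) and a GC box in 13 (44.8%, against 47% and 32.4%). All 7 windows with an AP-1 match belonged to the chromosome 8 run, as did 8 of the 12 with a TATA match, and 0 of its 9 windows held a GC box, against 13 of the 20 other members with an entry. Such a match is a run of letters and not a shown binding site. The windows of Mmp13 (chr8:12782579-12782828, plus strand) and Mmp3 (chr8:12925031-12925280, plus strand) are shown as examples of the run, with the letters of each match in capitals, 5′ to 3′ up to the base before the start. In Mmp13 the AP-1 match begins 66 bases and the TATA match 47 bases before the start, and in Mmp3 they begin 71 and 32 bases before it.
Mmp13: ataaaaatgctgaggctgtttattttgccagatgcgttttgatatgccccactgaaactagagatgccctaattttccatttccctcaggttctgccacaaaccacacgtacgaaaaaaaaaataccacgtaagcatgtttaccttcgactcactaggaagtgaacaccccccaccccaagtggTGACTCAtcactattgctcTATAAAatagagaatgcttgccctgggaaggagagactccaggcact
Mmp3: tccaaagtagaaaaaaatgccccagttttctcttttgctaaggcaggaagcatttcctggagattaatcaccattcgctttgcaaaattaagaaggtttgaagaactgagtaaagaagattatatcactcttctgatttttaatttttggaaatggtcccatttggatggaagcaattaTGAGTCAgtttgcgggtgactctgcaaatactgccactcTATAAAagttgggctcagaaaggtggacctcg
The windows of Timp3 (chr7:19459559-19459808, minus strand), Mmp24 (chr3:164738976-164739225, plus strand) and Adamts4 (chr13:86202761-86203010, plus strand) are shown because Timp3 had the smallest p of the members for space minus ground, and Adamts4 and Mmp24 the smallest and next smallest for nanoceria on ground. Timp3 holds 3 GC boxes, Mmp24 holds 5, and Adamts4 holds 0 of the 3 motifs in this window.
Timp3: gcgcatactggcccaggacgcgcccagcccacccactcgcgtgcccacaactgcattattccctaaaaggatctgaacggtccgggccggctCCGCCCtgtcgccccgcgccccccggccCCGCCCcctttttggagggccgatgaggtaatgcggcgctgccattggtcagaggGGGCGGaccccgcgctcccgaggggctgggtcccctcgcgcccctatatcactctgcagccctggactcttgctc
Mmp24: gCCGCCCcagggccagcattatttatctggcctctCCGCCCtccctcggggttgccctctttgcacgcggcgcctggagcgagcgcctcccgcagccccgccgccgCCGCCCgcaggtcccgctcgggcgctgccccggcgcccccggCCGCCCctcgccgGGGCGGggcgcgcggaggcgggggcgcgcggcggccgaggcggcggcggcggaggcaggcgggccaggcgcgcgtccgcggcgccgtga
Adamts4: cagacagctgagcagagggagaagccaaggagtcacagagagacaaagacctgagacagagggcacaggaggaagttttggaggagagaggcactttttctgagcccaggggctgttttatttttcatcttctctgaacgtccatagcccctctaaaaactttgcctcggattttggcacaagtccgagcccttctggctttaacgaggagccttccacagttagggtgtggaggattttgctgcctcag
The base composition differs as well: G and C make up 69.6% of the Timp3 window, 83.6% of that of Mmp24 and 51.2% of that of Adamts4, but 44.4% and 38.8% in Mmp13 and Mmp3.

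The effect of spaceflight over both treatments was taken from 3 space and 5 ground arrays, in a limma fit with regime and treatment as terms. No member passed the threshold of 0.05 after Benjamini-Hochberg adjustment over all probe sets, and neither did any other probe set (0% of 23188). Without adjustment, 6 of the 38 members (15.8%) had p below 0.05, against 9.56% of all probe sets: Timp3 and Mmp16 were higher in space, and Adamtsl4, Adamtsl5, Mmp11 and Mmp14 were lower. In all, 15 members were higher and 23 lower in space, with a median log2 difference of -0.08, beside -0.044 over all probe sets, 41.3% of which were higher. Of the 21 members with a mean log2 intensity of 7 or more, 5 (23.8%) had an unadjusted p below 0.05, against 13.8% of all probe sets that bright. Without ground untreated 3, 5 of the 38 did. Fewer cells of a kind and less RNA per cell cannot be told apart in these bulk samples. Nothing in the labels says that the arrays of a group came from separate cell cultures beyond their separate culture units, so the p-values cover only the spread among these arrays, which may be technical.

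Timp3 had the smallest p of all members. Its log2 intensity was 7.58 in space untreated 1, 7.77 and 7.59 in space nanoceria 1 and 2, 6.75 and 7.18 in ground untreated 1 and 3, and 6.62, 6.96 and 6.66 in ground nanoceria 1 to 3. The 3 space arrays lay above all 5 ground arrays, with ground untreated 3 the nearest. The space minus ground difference was 0.82 ± 0.16 (SE) on the log2 scale, or 1.77-fold, with an unadjusted p of 0.000667 and an adjusted p of 0.329 by limma. Without ground untreated 3 the difference was 0.91 (adjusted p = 0.351), and over all 15 other settings and left-out arrays it stayed between 0.68 and 0.94, with unadjusted p of at most 0.00483. Among the 4 TIMPs it stood alone in direction: Timp1 and Timp2 had space minus ground differences of -0.28 and -0.16 and Timp4 one of -0.01, none with an unadjusted p below 0.05. That 1 TIMP differed from another was not tested.

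Mmp16 (MT3-MMP), a membrane-anchored enzyme that can activate Mmp2, lay at 7.59 in space untreated 1, at 6.90 and 7.33 in space nanoceria 1 and 2, and between 6.61 and 6.99 on the 5 ground arrays. Space nanoceria 1 fell inside the ground range and the other 2 space arrays above it. The space minus ground difference was 0.47 ± 0.16 log2 units (unadjusted p = 0.0181, adjusted p = 0.438 by limma). It was 0.34 (unadjusted p = 0.128) without space untreated 1.

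Mmp14 went the other way from Mmp16. It lay at 10.87 in space untreated 1, 11.16 and 10.86 in space nanoceria 1 and 2, 11.15 and 10.83 in ground untreated 1 and 3, and 11.44, 11.47 and 11.42 in ground nanoceria 1 to 3. The 3 treated ground arrays were high and close together, and the untreated ground arrays overlapped the space arrays. The space minus ground difference of -0.32 ± 0.14 log2 units (unadjusted p = 0.0483, adjusted p = 0.521 by limma) had an unadjusted p below 0.05 in 7 of 15 alternatives, and was -0.21 (unadjusted p = 0.212) without space nanoceria 2. The other membrane-anchored members Mmp15, Mmp17 and Mmp24 had space minus ground differences of -0.20, -0.08 and -0.37, with unadjusted p above 0.05, and that of Mmp17 was 0.004 without space untreated 1.

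Adamtsl4, a microfibril-binding protein of the fibres that hold the eye lens, lay at 6.36 in space untreated 1, 6.92 and 6.65 in space nanoceria 1 and 2, 7.49 and 7.02 in ground untreated 1 and 3, and 7.46, 6.94 and 7.17 in ground nanoceria 1 to 3. The regimes did not overlap, but space nanoceria 1 and ground nanoceria 2 nearly touched. The difference was -0.58 ± 0.19 log2 units, or 1.49-fold lower in space (unadjusted p = 0.014, adjusted p = 0.422 by limma). Without space untreated 1 it was -0.40, with an unadjusted p of 0.117. Adamtsl5 had a difference of -0.36 ± 0.13 (unadjusted p = 0.0264, and 0.0523 without ground untreated 3) and overlapping regimes, while Adamtsl3 was higher in space by 0.32, with an unadjusted p above 0.05. The ADAMTS-like proteins therefore did not share a direction.

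Mmp11 (stromelysin-3), an enzyme activated by furin inside the cell and known from stroma under remodelling, lay at 7.71 in space untreated 1, 7.82 and 7.28 in space nanoceria 1 and 2, 7.94 and 8.00 in ground untreated 1 and 3, and 8.71, 8.14 and 7.92 in ground nanoceria 1 to 3. All 3 space arrays were below all 5 ground arrays, with a single high ground array. Its difference was -0.55 ± 0.22 log2 units (unadjusted p = 0.0342, adjusted p = 0.490 by limma), and -0.35 (unadjusted p = 0.160) without space nanoceria 2. Regimes did not overlap for 4 members (Timp3 higher, Adamtsl4, Mmp11 and Adamts1 lower), which is 10.5% of the 38. Of all probe sets, 5.11% did not overlap, 1.97% higher and 3.14% lower. For Adamts1, an aggrecan- and versican-cutting enzyme, the gap was small: 8.50 to 8.75 in space and 8.76 to 9.08 on ground, a difference of -0.26 (unadjusted p = 0.055).

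The gelatinases and the proteoglycan-cleaving members other than Adamts1 gave no such separation. Mmp2 had a space minus ground difference of -0.44 ± 0.44 log2 units, and of -0.09 without ground untreated 3. Adamts9 had one of 0.60 ± 0.33, and of 0.41 without that array. The differences of Adamts4 and Adamts5 were -0.24 and 0.36, all 4 with unadjusted p above 0.05. That of Adamts4 was -0.50 without ground untreated 3 and 0.03 without space nanoceria 1, and that of Adamts5 was 0.21 without space nanoceria 1. Of the 9 members of the chromosome 8 run, 0 had an unadjusted p below 0.05, and their median difference was -0.04 beside -0.15 in the other 29.

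**Figure D2:**
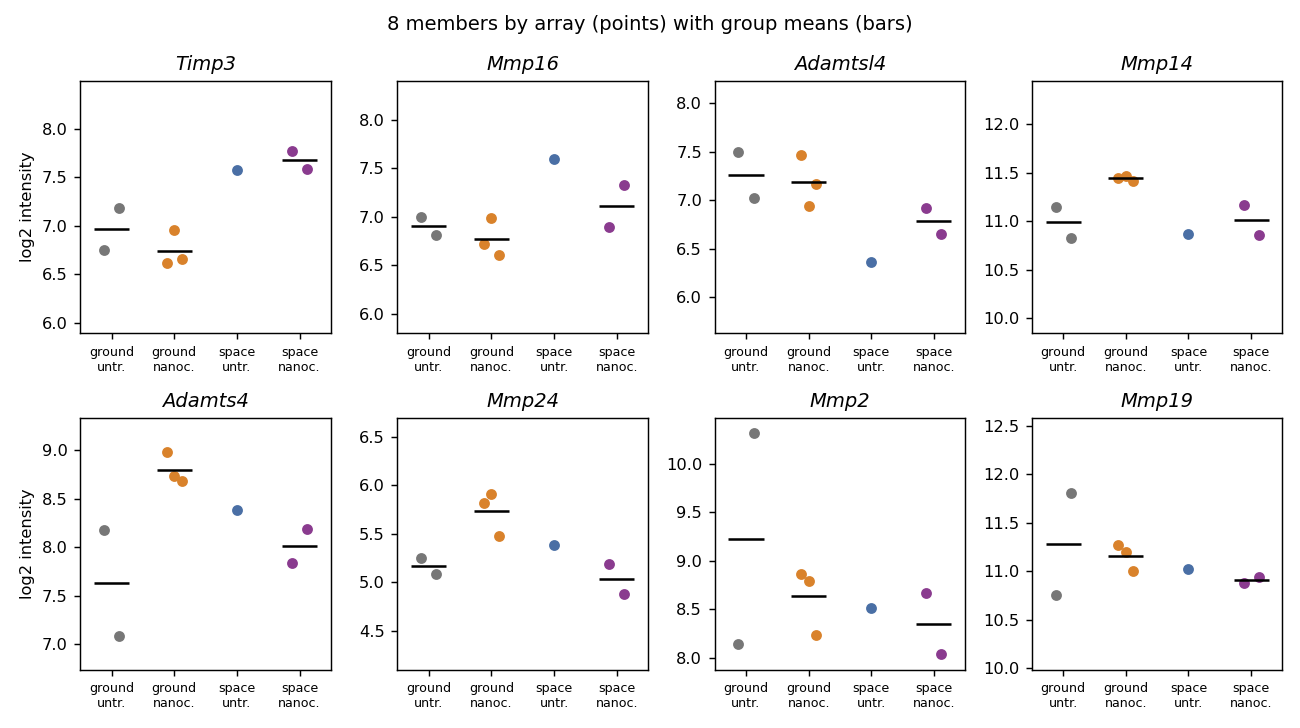
Points are single arrays and bars are group means, on the log2 intensity scale, for 8 members in the 4 groups of regime and treatment; every panel spans at least 2.6 log2 units and panels differ in their centre. The 3 space points of Timp3 lie above its 5 ground points, the 3 treated ground points of Adamts4 and Mmp14 lie above every other point of those genes, and 1 untreated ground point stands high in Mmp2 and Mmp19.

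Nanoceria was compared with no nanoceria on ground, with 3 and 2 arrays. Again no probe set passed adjustment (0% of 23188). An unadjusted p below 0.05 was found for 3 of the 38 members (7.89%), all higher with nanoceria, against 11% of all probe sets, so the share among members was not above the background. The 3 were Adamts4, Mmp24 and Mmp14, and 3 members also had such a p without ground untreated 3. The log2 difference was above 0 for 25 members and below 0 for 13, with a median of 0.085 beside 0.038 over all probe sets, 55.5% of which were higher. The treated and untreated ground arrays did not overlap for 10 members (8 higher and 2 lower), or 26.3%, the same share as that of all probe sets, 26.3%.

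Adamts4 (aggrecanase-1), which cuts aggrecan, versican and brevican, had the largest difference of all members in this comparison. It lay at 8.18 and 7.09 in ground untreated 1 and 3 and at 8.98, 8.73 and 8.68 in ground nanoceria 1 to 3. The groups did not overlap, and the 2 untreated arrays were further apart than the whole treated group. The nanoceria minus untreated difference was 1.17 ± 0.32 log2 units, or 2.25-fold (unadjusted p = 0.00697, adjusted p = 0.274 by limma). Its size depended on the untreated arrays. Without ground untreated 3 it was 0.62 (unadjusted p = 0.0337, adjusted p = 0.305), and without ground untreated 1 it was 1.71 (adjusted p = 0.0387), 1 of 167 probe sets that passed adjustment in that fit. The cell-cycle, NRF2 and skeletal muscle genes that set ground untreated 3 apart moved with this array as well, and their part in the Adamts4 difference was not tested.

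Mmp24 (MT5-MMP), a membrane-anchored enzyme known mainly from neurons, lay at 5.25 and 5.08 in ground untreated 1 and 3 and at 5.82, 5.91 and 5.48 in ground nanoceria 1 to 3. All 3 treated arrays were above both untreated ones, on a probe set at the 28th percentile of brightness. The difference was 0.57 ± 0.20 log2 units (unadjusted p = 0.0213, adjusted p = 0.371 by limma). It was 0.48 without ground untreated 3 (unadjusted p = 0.0975). With a pseudocount of 32, which damps dim probe sets, it was 0.33.

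Mmp14 was higher with nanoceria by 0.46 ± 0.17 log2 units on ground (unadjusted p = 0.0336, adjusted p = 0.414 by limma), and by 0.29 without ground untreated 3 (unadjusted p = 0.194). Its 3 treated ground values, given above, spanned under 0.1 log2 units. Mmp15 (MT2-MMP), the close relative of Mmp14, lay at 6.86 and 7.56 in ground untreated 1 and 3 and at 7.61, 7.70 and 7.95 in ground nanoceria 1 to 3. The lowest treated array was thus barely above ground untreated 3, and the difference of 0.55 ± 0.24 (unadjusted p = 0.054) was 0.90 without ground untreated 3 and 0.20 without ground untreated 1. Mmp23, which is held in the membrane by its N-terminal end, is grouped in the figures with the other secreted enzymes. It had a difference of 0.51 (unadjusted p = 0.0653), and of 0.35 without ground untreated 3. Of the members grouped as membrane-anchored, Mmp16 and Mmp17 had differences of -0.13 and -0.01.

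Lower values with nanoceria were fewer. Adamts12 lay at 12.24 on both untreated ground arrays and at 11.31, 12.20 and 11.94 in ground nanoceria 1 to 3, a difference of -0.43 (unadjusted p = 0.143), with ground nanoceria 1 furthest away. Without that array the difference was -0.17. Adamts1 had a difference of -0.25 (unadjusted p = 0.147) with groups that did not overlap. The Mmp2 difference of -0.60 ± 0.58 (unadjusted p = 0.335) came with the wide gap between its 2 untreated arrays, and without ground untreated 3 it had the opposite sign, 0.49 (unadjusted p = 0.205). Timp1, Timp2 and Timp3 had differences of 0.33, 0.23 and -0.22, all with an unadjusted p above 0.05. Without ground untreated 3 they were 0.20, 0.26 and -0.003, and that of Timp1 was 0.12 without ground nanoceria 1.

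**Figure D3:**
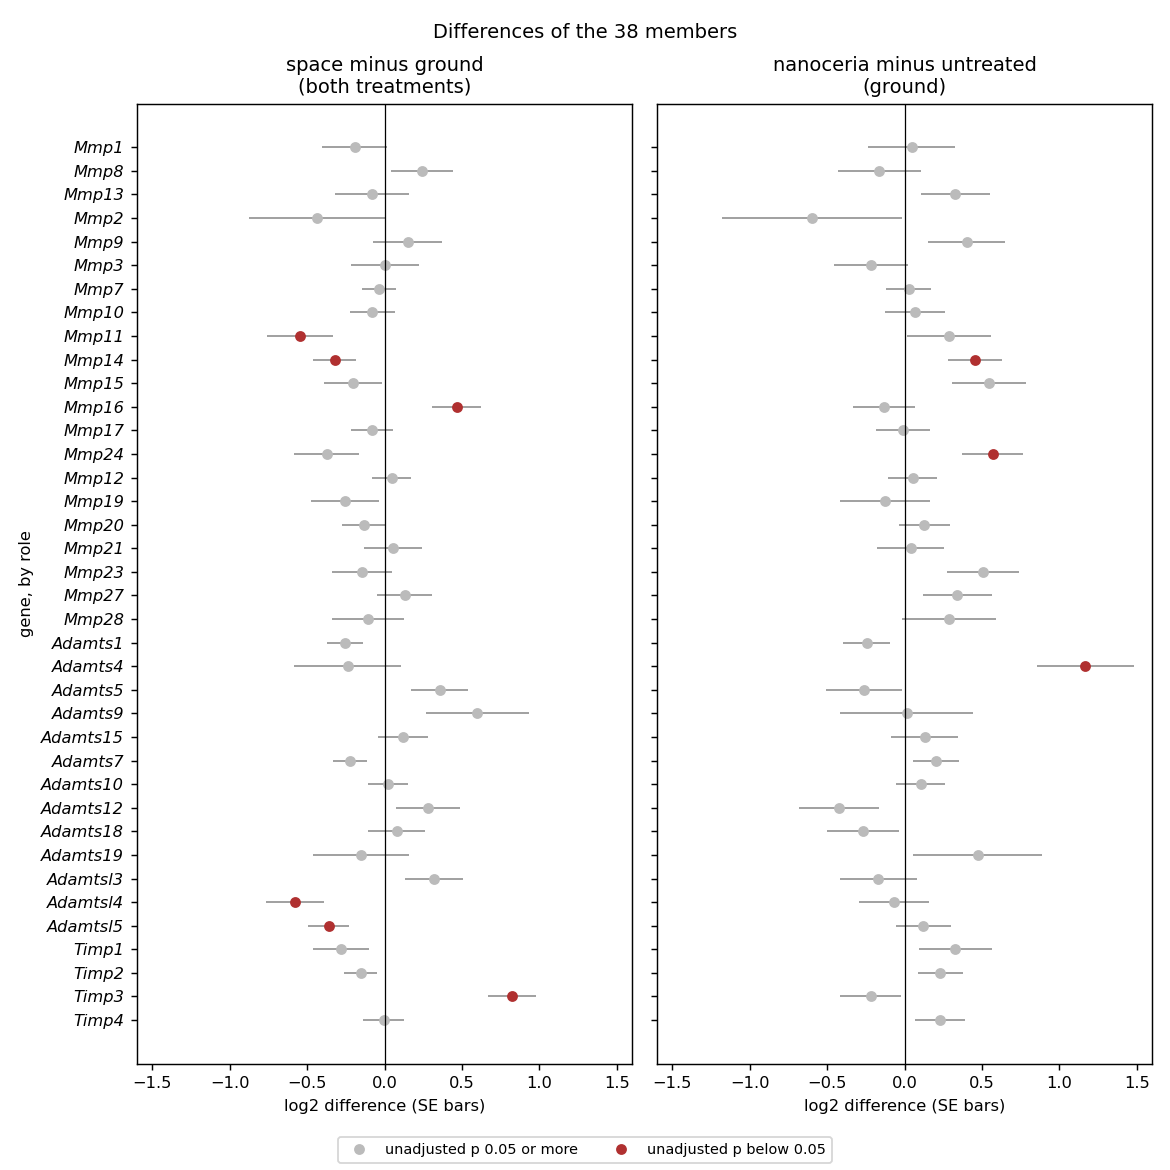
Points give the log2 difference of each of the 38 members and bars its SE, for space minus ground over both treatments (left) and for nanoceria minus untreated on ground (right); red marks an unadjusted p below 0.05 and grey any other. Timp3 (0.82) is the rightmost point on the left side and Adamts4 (1.17) on the right side, and no member passed after adjustment in either comparison.

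Over both regimes, with 5 treated and 3 untreated arrays, 2 members (5.26%, against 9.63% of all probe sets) had an unadjusted p below 0.05, both higher with nanoceria (3.77% of all probe sets were higher and 5.86% lower at that p). They were Mmp14, with a nanoceria minus untreated difference of 0.34 ± 0.14 log2 units (unadjusted p = 0.0378, adjusted p = 0.490 by limma), and Mmp15, with 0.43 ± 0.19 (unadjusted p = 0.0484). Both are membrane-anchored collagenolytic enzymes. Neither kept its p without 1 of the untreated ground arrays: Mmp14 was at 0.22 without ground untreated 3 and Mmp15 at 0.21 without ground untreated 1. Mmp3 had a difference of -0.49 (unadjusted p = 0.0543), which was -0.76 (unadjusted p = 0.00216, adjusted p = 0.560 by limma) without ground untreated 3 and -0.22 without space untreated 1. Timp2 had one of 0.21 (unadjusted p = 0.0807). The Adamts4 difference of 0.62 (unadjusted p = 0.111) rested on single arrays: it was 0.15 (unadjusted p = 0.538) without ground untreated 3 and 1.17 without space untreated 1. Treated and untreated arrays did not overlap for 2 members, Timp2 and Mmp23, both higher with nanoceria. That is 5.26% of the members, where 4.74% of all probe sets did not overlap, 2.47% higher and 2.28% lower. The share of members higher with nanoceria was 20 of 38, and 56% of all probe sets were higher.

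Within nanoceria-treated cells, 2 space arrays were set against 3 ground arrays. No probe set passed adjustment (0%), and 5 members (13.2%, against 8.41% of all probe sets) had an unadjusted p below 0.05, 1 higher and 4 lower (5.02% and 3.39% of all probe sets). Timp3 was higher in space by 0.94 ± 0.20 log2 units (unadjusted p = 0.00191, adjusted p = 0.342 by limma). The 4 others were lower in space: Mmp24 had a space minus ground difference of -0.70 ± 0.20 (unadjusted p = 0.00815), Mmp11 one of -0.71 ± 0.27 (unadjusted p = 0.0337), Adamts4 one of -0.79 ± 0.32 (unadjusted p = 0.0393) and Mmp14 one of -0.43 ± 0.17 (unadjusted p = 0.0404). Without space nanoceria 2, only Timp3 of the 38 members had such a p: Mmp24 was at -0.55 (unadjusted p = 0.0746), Mmp11 at -0.44 (unadjusted p = 0.239) and Mmp14 at -0.28 (unadjusted p = 0.258). Adamts4 was further from 0 without space nanoceria 2, at -0.96, and nearer to it without space nanoceria 1, at -0.62. Mmp24 was at -0.40 (unadjusted p = 0.0131) with the pseudocount of 32. Adamts4 lay at 7.84 and 8.18 in space nanoceria 1 and 2, and Mmp24 at 5.19 and 4.88, each below all 3 treated ground arrays listed above. These treated ground arrays also enter the comparison of nanoceria on ground, so the 2 sets of values are not independent.

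Over all members, 27 of 38 were lower in treated cells in space than in treated cells on ground, with a median of -0.17 beside -0.051 over all probe sets, 41.4% of which were higher. Groups did not overlap for 14 members (36.8%), 2 of them higher and 12 lower. Of all probe sets, 31.2% did not overlap, 13.6% of all being higher and 17.6% of all lower. Adamts7, which cuts cartilage oligomeric matrix protein, was among the 12 lower members, with a difference of -0.29 (unadjusted p = 0.0816 by limma).

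Whether nanoceria was followed by a different change in space than on ground rests on a single array of untreated cells in space, without a replicate. In the interaction test, in which a negative value means a smaller or opposite nanoceria difference in space, the lowest adjusted p among members was 1 by limma, and 3 members (7.89%, against 2.35% of all probe sets) had an unadjusted p below 0.05, all negative (0.906% of all probe sets were negative and 1.44% positive at that p). The interaction was positive for 14 of the 38 members and for 48.7% of all probe sets. For Adamts4 the nanoceria minus untreated difference was 1.17 on ground and -0.37 in space, where untreated 1 lay at 8.38 and both treated arrays below it. The interaction was -1.54 ± 0.53 (unadjusted p = 0.0211), and -0.995 without ground untreated 3. For Mmp24 the same differences were 0.57 and -0.35, with an interaction of -0.92 ± 0.33 (unadjusted p = 0.0246). It was -0.52 (unadjusted p = 0.0357) with the pseudocount of 32, -0.83 (unadjusted p = 0.0585) without ground untreated 3 and -0.77 (unadjusted p = 0.0840) without space nanoceria 2.

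Mmp13 (collagenase-3), the main interstitial collagenase of adult rodents, had the next smallest p. Its probe set lay at 4.59 in space untreated 1, 4.07 and 3.73 in space nanoceria 1 and 2, 3.90 and 4.14 in ground untreated 1 and 3, and 4.00, 4.46 and 4.57 in ground nanoceria 1 to 3, all near the dim end of the array. The interaction was -1.02 ± 0.37 (unadjusted p = 0.0277), but -0.38 (unadjusted p = 0.0676) with the pseudocount of 32 and -0.85 (unadjusted p = 0.0914) without space nanoceria 2. Mmp3, another gene of the chromosome 8 run, followed with -0.76 (unadjusted p = 0.0982), from 5.85 in space untreated 1 against 5.06 and 4.69 in the treated space arrays. Mmp9 and Mmp21 had interactions of -0.72 and -0.60, with unadjusted p above 0.05. Without ground untreated 3, the interactions of Mmp3, Mmp9 and Mmp21 were -0.41, -0.41 and -0.52. In all 4 of these dim genes space untreated 1 was the highest array or next to the highest.

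By direction alone, 11 members were higher with nanoceria in both regimes, 8 were lower in both, 14 were higher on ground and lower in space, and 5 were lower on ground and higher in space. The median nanoceria difference of the members was 0.085 on ground and -0.09 in space. Neither these direction counts nor the in-space median were set against all probe sets. Every in-space difference uses the lone array of untreated cells in space, and every on-ground difference the same untreated ground arrays. The members therefore do not count as independent, and whether the counts are particular to them was not tested. The median interaction was -0.20 over the 38 members and -0.05 over the 21 with a mean log2 intensity of 7 or more, beside -0.01 over all probe sets.

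**Figure D4:**
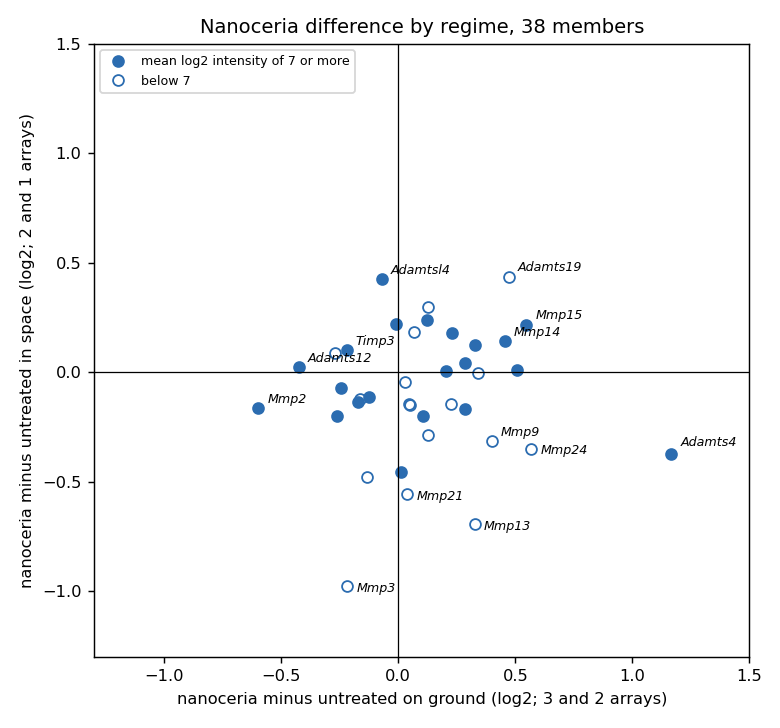
Each point is 1 of the 38 members, with its nanoceria minus untreated log2 difference on ground (3 and 2 arrays) across and the same difference in space (2 arrays and 1 array) up; filled points have a mean log2 intensity of 7 or more. Adamts4 lies far right and below 0 (1.17 and -0.37), and Mmp3 lies lowest (-0.98 in space). Right of 0 and below 0 lie 14 points. All heights share the lone array of untreated cells in space, and the other probe sets are not shown for comparison.

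Genes that act on these enzymes were taken from lists drawn up for this purpose: 75 genes of sheddases, plasminogen activation, proprotein convertases, astacin proteases, inhibitors and partners, ADAMTS substrates and inducing factors. None passed adjustment in any of the 5 comparisons. For space minus ground, 4 had an unadjusted p below 0.05 and were higher, and 7 were lower (percentages over all probe sets were 5.3% and 4.26%). Of the 24 inducing factors, 6 (25%, against 9.56% of all probe sets) had such a p. The cytokines Il6 and Tgfb2 were higher in space, by 0.77 (unadjusted p = 0.00726) and 0.63 (unadjusted p = 0.0476), and Junb, Jun, Rela and Tgfb1 were lower. Rela, a subunit of NF-κB, and Tgfb1 had differences of -0.39 (unadjusted p = 0.0204) and -0.47 (unadjusted p = 0.0334). Junb and Jun, subunits of AP-1, had space minus ground differences of -0.85 ± 0.17 (unadjusted p = 0.000734, adjusted p = 0.329 by limma) and -0.62 ± 0.14 (unadjusted p = 0.00179). Junb lay at 7.37 in space untreated 1, 7.51 and 7.93 in space nanoceria 1 and 2, 8.27 and 7.99 in ground untreated 1 and 3, and 8.57, 8.39 and 8.89 in ground nanoceria 1 to 3. All 3 space arrays were below all 5 ground arrays. The AP-1 subunit Fosl1 was not lower, with a difference of 0.28, and neither was Fos, with 0.004, nor Fosl2, with 0.14.

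Of the 15 ADAMTS substrates, 2 had an unadjusted p below 0.05 for space minus ground. Vcan (versican), a large proteoglycan cut by Adamts1, Adamts4, Adamts5 and Adamts9, lay at 11.08 in space untreated 1, 10.62 and 10.59 in space nanoceria 1 and 2, 10.24 and 10.26 in ground untreated 1 and 3, and 9.47, 10.38 and 9.67 in ground nanoceria 1 to 3. The space arrays were all above the ground arrays, by a difference of 0.79 ± 0.20 (unadjusted p = 0.00366, adjusted p = 0.379 by limma). Dcn (decorin), a small collagen-binding proteoglycan, was higher in space by 0.49 (unadjusted p = 0.0421). Furin, the convertase that activates Mmp11 and Mmp14, had a space minus ground difference of -0.33 (unadjusted p = 0.0399), and Plaur, the urokinase receptor, one of -0.56 (unadjusted p = 0.0203). That of Furin was -0.21 (unadjusted p = 0.184) without space nanoceria 2, and that of Dcn 0.37 (unadjusted p = 0.0846) without ground nanoceria 1.

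With nanoceria on ground, 9 of the 75 genes had an unadjusted p below 0.05 and were higher and 1 was lower (percentages over all probe sets were 4.42% and 6.57%). Furin was higher by 0.46 (unadjusted p = 0.0233): it lay at 10.78 and 10.91 in ground untreated 1 and 3 and at 11.41, 11.23 and 11.29 in ground nanoceria 1 to 3. Plaur was higher by 0.69 (unadjusted p = 0.0194) and Fosl1 by 0.50 (unadjusted p = 0.0231). Plaur was at 0.47 (unadjusted p = 0.130) without ground untreated 3 and Fosl1 at 0.35 (unadjusted p = 0.138) without ground untreated 1. The 1 lower gene was Il6, an inflammatory cytokine and myokine, at 8.63 and 8.21 in ground untreated 1 and 3 and 7.51, 7.70 and 6.88 in ground nanoceria 1 to 3. Its groups did not overlap, with a difference of -1.06 ± 0.28 (unadjusted p = 0.00623, adjusted p = 0.265 by limma).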

How the data were processed

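Total RNA of 8 H9c2 samples (30 ng each) was hybridised to 1 rat Clariom S Pico array each, a design made on Rnor_6.0 per the labels' protocols. The deposited table held linear intensity values per probe set, which the authors had made by RMA, per the submitters' processing notes. No source used here names the software, its version or its settings. All 8 columns of values were used, and log2 was taken without a pseudocount. Genes were named from the platform annotation, whose gene identifiers matched RefSeq symbols for all 38 members. Another ground untreated sample, replicate 2, was not analysed here.

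Differences were fitted over all 23188 probe sets with limma 3.58.1 in R 4.3.3, with Benjamini-Hochberg adjustment and a threshold of 0.05. Comparisons over both treatments or both regimes came from a fit with regime and treatment as terms (5 residual df), and the others from a fit of 4 group means (4 residual df), with the lone array of untreated cells in space assumed to vary like the other groups. The script was tested on simulated data. The members, lists, alternatives and naming rule were chosen with earlier results of these data known. The rule named the 4 Timp genes, the 12 brightest members, the 6 smallest p-values in each comparison, Mmp2, Mmp9, Mmp14, Adamts1, Adamts4 and Adamts5, and up to 4 genes per pathway list; other genes named were chosen after their values were seen. Alternatives were cyclic loess, equal array medians, a pseudocount of 32, the brighter 66.7% of probe sets, trended robust variances, array weights, a replicate block, fits on the compared arrays alone and each array left out. The number of arrays limits the precision.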

Additional observations from a re-analysis of the deposited data

Results flagged for a closer look

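Each of the 38 members was looked at over the 5 ground arrays and over the 5 nanoceria arrays, 76 groups in all, for a single array whose gap to its nearest neighbour exceeded 0.71 of the whole range. In 8 groups 1 array did. Chance gives about 1 in 20 for independent groups of alike arrays. Here both sets share the ground nanoceria arrays and mix treatments or regimes, so that rate cannot serve as the expected one.

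Ground nanoceria 1 was the array apart in 5 of the 8. Among ground arrays it was lowest for Adamts18, an ADAMTS of lens and kidney development (4.83, next 5.47), for Adamts5, the main aggrecanase of mouse cartilage (7.39, next 7.93), and for Adamtsl3 (8.71, next 9.20), and highest for Mmp11 (8.71, next 8.14). For Adamts18 it was also the lowest of the nanoceria arrays (4.83, next 5.42).

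Ground nanoceria 3 was highest for Adamts19, known from heart valves, among ground arrays (5.67, next 4.39) and for Mmp21, known from left-right patterning, among nanoceria arrays (5.76, next 5.21). Ground untreated 3 was lowest among ground arrays for Adamts10 (9.98, next 10.20). The probe sets of Adamts18, Adamts19 and Mmp21 are dim, at the 28.6th, 13.8th and 28th percentile of brightness.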

How the results depend on the processing

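The 30 differences of the 6 members with the smallest p in each comparison kept their sign under every alternative run for them, and 1 changed its side of the threshold: Adamts4 with nanoceria on ground, 1.71 (adjusted p = 0.0387) without ground untreated 1. Probe sets called for space minus ground were 0, but 4 with array weights and 0 to 1 with 1 array left out; on ground, nanoceria gave 0, and 0 to 167 with 1 array left out.

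Shifts of the members' median log2 difference were held against 0.033, the pooled within-group SD of the members' median deviation per array. That yardstick is not the SE of a difference. The median moved by more than it as follows. For space minus ground (-0.08) it was -0.039 with cyclic loess, -0.043 with the pseudocount, -0.155 in the brighter probe sets and -0.168 to -0.022 with 1 array left out. For nanoceria over both regimes (0.037) it was 0.106 in the brighter probe sets, -0.015, of the opposite sign, with array weights and 0.014 to 0.085 with 1 array left out. For nanoceria on ground (0.085) it was 0.036 with loess, 0.126 with equal medians, 0.039 with the pseudocount and 0.071 to 0.147 with 1 array left out. For space minus ground in treated cells (-0.168) it was -0.114 with loess, -0.097 with the pseudocount and -0.198 to -0.081 with 1 array left out. For the interaction (-0.20) it was -0.247 with equal medians, -0.107 with the pseudocount, -0.051 in the brighter probe sets, -0.142 with array weights and -0.238 to -0.133 with 1 array left out. In the brighter probe sets the 15 members of the dimmest class drop out and the differences of the others stay the same, so that median covers fewer members. The cause of the other shifts was not tested.

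Deviations from the group mean of same-numbered arrays correlated at -0.348 to -0.0133, so these arrays did not deviate alike. Within the untreated ground group the deviations mirror each other, as they do within the treated space group, so this check cannot exclude pairing. With the replicate number as a block, the medians were 0.099 for nanoceria over both regimes, 0.122 on ground and -0.127 for the interaction, and probe sets with an unadjusted p below 0.05 for space minus ground numbered 1284 against 2217.

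Over all alternatives, members with an unadjusted p below 0.05 numbered 3 to 8 for space minus ground, 0 to 3 for nanoceria over both regimes, 2 to 6 on ground, 1 to 8 for space minus ground in treated cells and 1 to 5 for the interaction. Probe sets with such a p numbered 1231 to 3231, 1798 to 2549, 1882 to 3336, 990 to 3065 and 340 to 1330. Unadjusted counts were added after seeing the data. Each member has 1 probe set, so averaging probe sets gave the same values; fits on the compared arrays alone were made for the 2 comparisons with replicates in both groups, and the interaction could not be fitted without space untreated 1. With no detection measure, the depth behind dim probe sets is unknown.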

Other observations

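Mmp28 (epilysin), an enzyme of skin and muscle repair, lay at 8.35 in ground nanoceria 1 and 7.26 in ground nanoceria 3, with the other 6 arrays between 7.41 and 7.81, so that both extremes came from the same group. Mmp17 (MT4-MMP), which is anchored by a lipid and not by a protein segment, lay between 6.82 and 7.22 on all 8 arrays, and its space minus ground and nanoceria differences had unadjusted p above 0.05. Adamts5 and Adamts12 shared their lowest array, ground nanoceria 1, at 7.39 and 11.31.

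The extremes of the members were spread over the arrays. Ground nanoceria 1 held the highest value of 9 members, and space nanoceria 2 the lowest value of 9. Space nanoceria 2 held the highest value of 1 member, Adamtsl3 (9.70), and ground nanoceria 2 the lowest value of 1.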
